A study of Mus musculus with 18 samples.

Results

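The interferon response and viral sensing genes described here are 41 mouse genes that were chosen by name: the cytosolic and endosomal sensors of viral RNA, the transcription factors that act after them, and the antiviral effectors, chemokine and antigen presentation genes that interferon switches on. They were measured on Affymetrix mouse whole-transcript gene arrays that hold 35512 probe sets. Of the 41 genes, 39 had a probe set annotated with 1 gene symbol and were analysed, out of 19938 genes with such a probe set. Isg15 and Gbp2 lie only on probe sets that carry several symbols, so no value is given for either. TKO cells, which lack Dnmt1, Dnmt3a and Dnmt3b, Dnmt1-/- cells, which lack only the maintenance DNA methyltransferase, and wt cells were compared as undifferentiated ESCs (day 0) and as embryoid bodies (EBs) made by the hanging drop method at day 4 and day 16. All lines were J1 ESCs of the strain 129Sv/Jae, each genotype was studied as 1 line, and each of the 9 genotype and day groups has 2 arrays, given below as replicate 1 and replicate 2. The question put to these genes was whether loss of DNA methylation raises them.

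Cells detect viral RNA mainly through RIG-I (Ddx58) and MDA5 (Ifih1), which signal through Mavs on mitochondria to Irf3 and Irf7 and so to type I interferon. Secreted interferon then acts through a complex that holds Stat2 and Irf9 and binds the interferon-stimulated response element (ISRE) in the promoters of antiviral genes such as the Ifit, Oas and Mx families. ESCs are known for a weak interferon response that is gained during differentiation. In other systems, mainly tumour cells treated with inhibitors of DNA methyltransferases, loss of methylation has been described to activate endogenous retroviruses whose double-stranded RNA sets off the same sensors.

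The promoters of these genes were searched for the ISRE. RefSeq promoter windows of 300 bases, running from 250 bases before to 50 bases after a start site on GRCm38.p6, were given for 32 of the 41 genes. Those with no window were Dhx58, Zbp1, Usp18, Oas2, Mx1, Mx2, Parp9, Parp14 and Rtp4. The ISRE core, searched as GAAA, any 2 bases, then GAAA on both strands, was found in 16 of the 32 genes (50%), against 1079 of all 27025 genes with a window (3.99%). At least 2 cores, which may overlap, were found in 6 genes (18.8%, against 0.266% of all genes): Isg15, Ifit1, Ifit3, Bst2, Ifitm3 and Gbp3. The windows of these genes held a median of 9.5 CpG sites, against 7 in all genes. A match describes the letters in the window and does not show that a factor binds there. The windows of 5 genes that the results turn on are printed 5′ to 3′ on the strand of the gene, with the ISRE cores in capitals. They were picked to set genes that were lower in TKO EBs at day 16 (Ifit1, Ifit3 and B2m) beside genes that were higher in TKO EBs at day 4 (Ddx58 and Ifitm3).
Ifit1 (chr19:34640639-34640938, plus strand): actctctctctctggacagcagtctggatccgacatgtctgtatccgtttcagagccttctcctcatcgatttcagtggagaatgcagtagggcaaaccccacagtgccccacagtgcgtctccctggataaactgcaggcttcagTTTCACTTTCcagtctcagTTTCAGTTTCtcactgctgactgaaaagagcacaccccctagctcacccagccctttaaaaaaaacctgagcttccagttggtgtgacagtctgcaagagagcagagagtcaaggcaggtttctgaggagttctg
Ifit3 (chr19:34583279-34583578, plus strand): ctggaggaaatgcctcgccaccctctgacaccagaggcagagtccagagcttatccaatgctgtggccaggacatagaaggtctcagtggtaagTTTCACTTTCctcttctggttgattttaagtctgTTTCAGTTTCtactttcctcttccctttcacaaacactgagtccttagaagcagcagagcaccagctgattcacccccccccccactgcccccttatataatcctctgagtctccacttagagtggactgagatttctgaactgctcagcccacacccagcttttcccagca
B2m (chr2:122147437-122147736, plus strand): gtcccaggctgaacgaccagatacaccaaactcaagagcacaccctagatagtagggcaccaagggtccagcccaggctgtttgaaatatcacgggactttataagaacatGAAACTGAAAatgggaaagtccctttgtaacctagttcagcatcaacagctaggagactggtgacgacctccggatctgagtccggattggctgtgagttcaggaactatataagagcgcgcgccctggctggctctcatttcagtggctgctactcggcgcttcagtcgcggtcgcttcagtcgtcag
Ddx58 (chr4:40239776-40240075, minus strand): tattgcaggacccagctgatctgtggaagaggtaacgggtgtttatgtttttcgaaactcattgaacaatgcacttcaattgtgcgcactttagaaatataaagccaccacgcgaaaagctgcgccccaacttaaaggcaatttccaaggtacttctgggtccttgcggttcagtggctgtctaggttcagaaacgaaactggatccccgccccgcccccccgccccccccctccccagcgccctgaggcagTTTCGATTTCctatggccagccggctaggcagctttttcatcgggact
Ifitm3 (chr7:141010695-141010994, minus strand): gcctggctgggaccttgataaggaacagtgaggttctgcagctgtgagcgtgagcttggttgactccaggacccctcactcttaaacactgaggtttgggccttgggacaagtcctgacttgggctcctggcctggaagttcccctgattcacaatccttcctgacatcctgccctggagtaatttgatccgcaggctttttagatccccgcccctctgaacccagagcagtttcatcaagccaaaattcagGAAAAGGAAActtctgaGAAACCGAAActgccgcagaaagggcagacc
Positions are counted from 0 at the start site, with upstream bases negative. In Ifit1 the 2 cores began at -104 and -85 from the start site, and in Ifit3 at -156 and -122, so both genes carried them upstream. The single core of B2m began at -139. In Ddx58 the core began at 2 and in Ifitm3 the cores began at 2 and 19, so these lay just past the start site. Position did not separate the genes by direction. Ifih1 and Eif2ak2, which were also lower in TKO EBs at day 16, had cores that began at 32 and 18. CpG sites were few in the windows of Ifit3 (1), Ifit1 (4) and Ifitm3 (5), and more frequent in those of B2m (14) and Ddx58 (15). Of the 10 members that were lower in TKO than in wt EBs at day 16, as given further on, 8 had a window and 6 of these held an ISRE core.

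The arrays were checked as a whole first. Their median log2 signals lay between 5.77 and 5.90, and the 2 arrays of a group correlated across probe sets at 0.981 to 0.991. ESC markers averaged 10.44 to 10.86 on the arrays of day 0 in all lines. The Dnmt1 probe set read 8.40 to 8.75 on TKO arrays and 8.45 to 8.86 on Dnmt1-/- arrays, against 9.16 to 9.77 on wt arrays. The Dnmt3a probe set read 6.45 to 7.65 on TKO arrays, against 7.96 to 9.45 on wt arrays, while the ranges for Dnmt3b overlapped, with 7.33 to 8.88 on TKO arrays and 7.16 to 10 on wt arrays. Whether these probe sets lie inside the deleted exons is not known, so a remaining signal is not a measure of protein. Array to array spread touched the members. At day 16 replicate 2 was below replicate 1 for 39 of 39 members in Dnmt1-/- EBs, with a median difference of -0.39 on the log2 scale. In wt EBs of day 16 replicate 2 was above replicate 1 for 33 of 39 members, with a median difference of 0.54. In TKO EBs of day 16 replicate 2 was below replicate 1 for 28 of 39, with a median difference of -0.13. At day 4 the widest spread was that of Dnmt1-/- EBs, where replicate 2 was below replicate 1 for 32 of 39 members, with a median difference of -0.35. Since every sample is bulk RNA, a lower signal cannot be told apart from fewer expressing cells.

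In undifferentiated ESCs no member was called in any mutant. A call required a 2-fold difference and an adjusted p under 0.05 with limma, over all 35512 probe sets. At day 0, TKO against wt gave 0 of 39 calls (0.304% of all probe sets were called). At an unadjusted p under 0.05, 0 members were higher and 4 lower, beside 1260 and 1839 of all 35512 probe sets. The median log2 fold change was -0.17, against -0.02 over all probe sets. Dnmt1-/- against wt gave 0 calls as well (0.355% of all probe sets), with a median of -0.08 against -0.03. Before adjustment 0 members were higher and 2 lower, beside 1066 and 1004 probe sets. TKO against Dnmt1-/- ESCs gave 0 calls (0.00563%), with 0 higher and 2 lower before adjustment, beside 496 and 725 probe sets. The furthest member was Gbp3, a guanylate-binding GTPase, at 4.89 and 5.10 in TKO ESCs, 6.49 and 6.08 in Dnmt1-/- ESCs, against 7.54 and 6.35 in wt ESCs. The TKO and wt arrays of Gbp3 did not overlap. Its TKO against wt log2 fold change was -1.95 with an SE of 0.59 and an adjusted p of 0.25 (limma). The sensors, Ddx58 included, differed from wt by between -0.44 and 0.29 in both mutants.

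**Figure D1:**
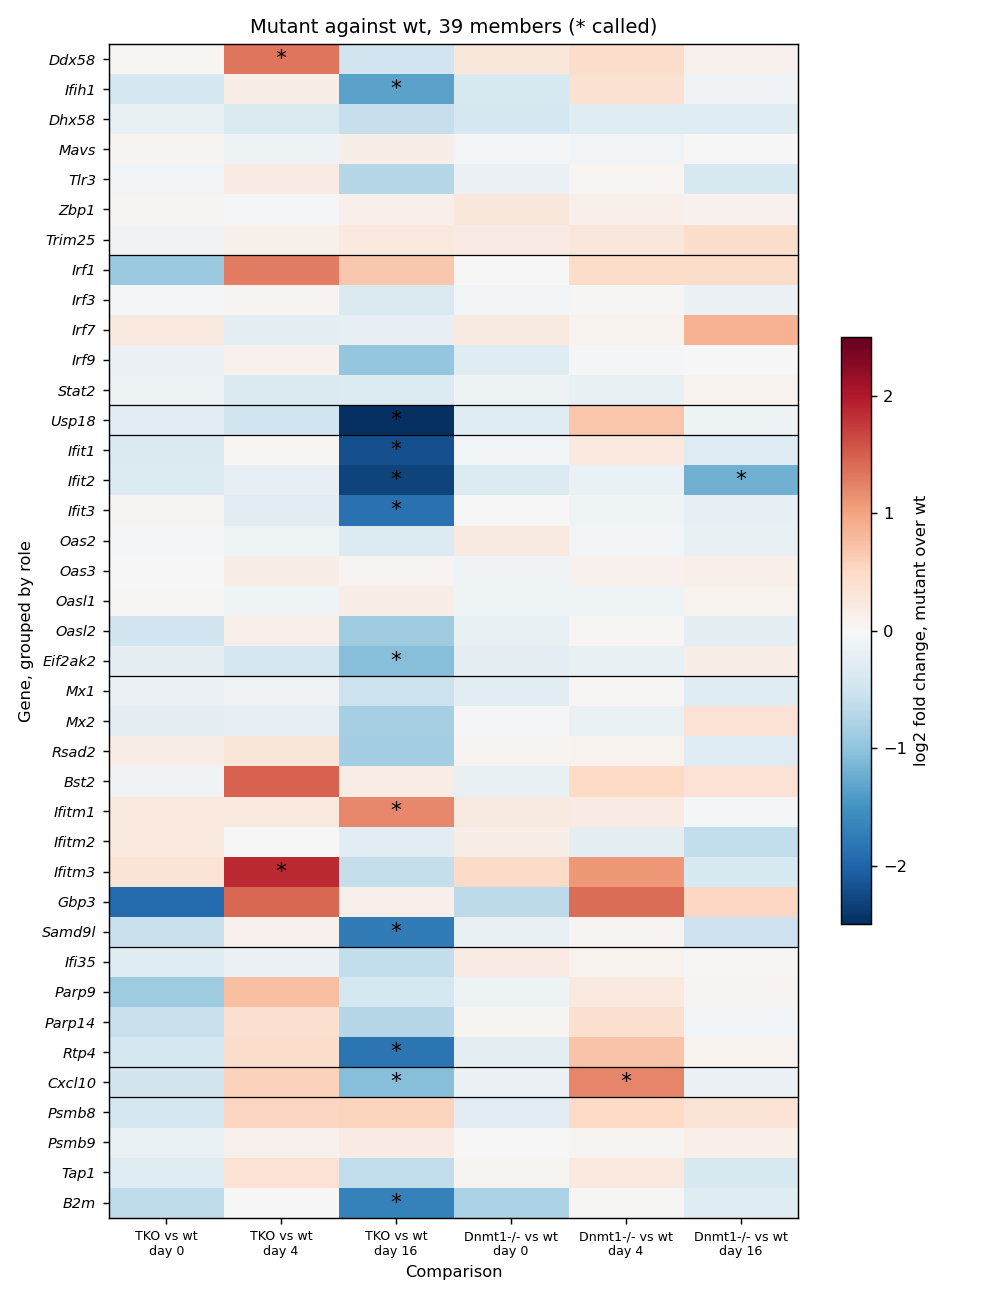
Log2 fold changes of the 39 members, mutant over wt, for TKO (left 3 columns) and Dnmt1-/- (right 3 columns) at day 0, day 4 and day 16. Red is higher in the mutant, blue is lower, and an asterisk marks a call (2-fold and adjusted p under 0.05, limma). Rows follow the members' roles, split by lines. No member is marked at day 0, and 11 are marked for TKO at day 16, of which 10 are blue.

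At day 4 a pair of members stood higher in TKO EBs than in wt EBs. Ddx58, which encodes the RNA sensor RIG-I, read 7.20 and 7.63 in TKO EBs, 6.85 and 6.19 in Dnmt1-/- EBs, against 6.14 and 6.03 in wt EBs. Both TKO arrays lay above every array of the other genotypes, with a log2 fold change over wt of 1.33 (SE 0.26, adjusted p = 0.01 with limma). Ifitm3, a membrane protein that blocks the entry of enveloped viruses, read 10.36 and 10.91 in TKO EBs, 10.06 and 9.67 in Dnmt1-/- EBs, against 9.15 and 8.39 in wt EBs. The 3 genotypes did not overlap for this gene, and TKO exceeded wt by 1.86 (SE 0.26, adjusted p = 0.0012, limma). These 2 of 39 members stand beside 2.11% of all probe sets called higher (0.805% were called lower), and the median member differed from wt by 0.11, against -0.05 over all probe sets. Before adjustment 6 members were higher and 0 lower at p under 0.05, beside 2684 and 2791 of all 35512 probe sets. Bst2, the tetherin that holds budding virus at the cell surface, read 9.09 and 8.55 in TKO EBs, 8.32 and 7.36 in Dnmt1-/- EBs, against 7.54 and 7.14 in wt EBs, a difference of 1.47 between TKO and wt with an adjusted p of 0.051. Irf1, a transcription factor of the interferon response, differed by 1.28 with an adjusted p of 0.082. The Ddx58 call was lost without TKO replicate 2 of day 4, where the log2 fold change was 1.11 with an adjusted p of 0.12, and without either wt array of day 4, with adjusted p of 0.058 and 0.063. The Ifitm3 call stayed when any array was left out.

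In Dnmt1-/- EBs of day 4 the only call was Cxcl10, a chemokine that attracts activated T cells. It read 6.76 and 6.20 in Dnmt1-/- EBs, against 5.38 and 5.12 in wt EBs, a log2 fold change of 1.22 (SE 0.25, adjusted p = 0.044, limma). TKO EBs of that day lay between them at 5.62 and 6.04. This is 1 of 39 members, beside 0.712% of all probe sets called higher. Before adjustment 3 members were higher, beside 1001 of all 35512 probe sets. The call was lost in 13 of the 18 fits that left out 1 array, including the fit without Dnmt1-/- replicate 1 of day 4, which gave 0.94 with an adjusted p of 0.44. TKO against Dnmt1-/- EBs at day 4 gave 0 calls (0.848% of all probe sets). At an unadjusted p under 0.05, 3 members were higher and 2 lower, beside 2040 and 1513 of all 35512 probe sets.

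At day 16, in contrast to day 4, 10 of 39 members were lower in TKO than in wt EBs, where 3.43% of all probe sets were called lower. Only Ifitm1 was higher, beside 2.4% of all probe sets called higher. The median member differed by -0.58, against 0.05 over all probe sets. At an unadjusted p under 0.05, 20 members were lower and 1 higher, beside 4328 and 4236 of all 35512 probe sets. The genes called lower came from every role but that of the transcription factors.

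The ISG15 system gave the widest gap. Usp18, the protease that removes ISG15 from proteins and damps signalling from the interferon receptor, read 5.61 and 5.30 in TKO EBs, 8.34 and 7.32 in Dnmt1-/- EBs, against 7.35 and 8.55 in wt EBs. TKO arrays lay below all others, while Dnmt1-/- and wt arrays overlapped. The TKO against wt log2 fold change was -2.49 (SE 0.42, adjusted p = 0.0016, limma).

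Among the RNA-binding effectors, 4 of 8 were lower in TKO EBs, and these included all 3 Ifit genes among the members. The Ifit1 protein binds viral RNA with foreign 5′ ends and blocks its translation. Ifit2 read 4.70 and 3.96 in TKO EBs, 5.64 and 5.23 in Dnmt1-/- EBs, against 6.64 and 6.64 in wt EBs. The genotypes did not overlap, and Ifit2 was the only member that was also called in Dnmt1-/- EBs at day 16. Its log2 fold change was -2.31 in TKO (SE 0.22, adjusted p = 1.5e-05) and -1.21 in Dnmt1-/- EBs (SE 0.22, adjusted p = 0.0051, limma). Ifit1 read 4.60 and 4.47 in TKO EBs, 7.17 and 5.62 in Dnmt1-/- EBs, against 6.29 and 7.16 in wt EBs, with a TKO against wt log2 fold change of -2.19 (SE 0.42, adjusted p = 0.004). Ifit3 read 3.72 and 4.13 in TKO EBs, 6.17 and 4.98 in Dnmt1-/- EBs, against 4.92 and 6.64 in wt EBs, a log2 fold change of -1.86 (SE 0.47, adjusted p = 0.019). For both genes the TKO arrays lay below all others and the Dnmt1-/- and wt arrays overlapped. Eif2ak2 encodes PKR, the kinase that stops translation when it binds double-stranded RNA. It read 6.50 and 5.75 in TKO EBs, 7.54 and 7.17 in Dnmt1-/- EBs, against 7.0 and 7.38 in wt EBs, a TKO against wt log2 fold change of -1.06 (SE 0.25, adjusted p = 0.014). Of the oligoadenylate synthetase family, Oas2, Oas3, Oasl1 and Oasl2 were not called, with log2 fold changes from -0.89 (Oasl2) to 0.17 (Oasl1).

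Among the sensors, Ifih1 (MDA5) read 4.82 and 4.54 in TKO EBs, 6.12 and 5.71 in Dnmt1-/- EBs, against 5.52 and 6.50 in wt EBs. TKO was again below both other genotypes, with a log2 fold change from wt of -1.33 (SE 0.32, adjusted p = 0.013, limma). Ddx58, which had been higher in TKO at day 4, read 7.98 and 7.72 in TKO EBs at day 16, 8.63 and 8.24 in Dnmt1-/- EBs, against 8.07 and 8.58 in wt EBs, a difference from wt of -0.47 with an adjusted p of 0.32. The remaining 5 members of this role, Dhx58, Mavs, Tlr3, Zbp1 and Trim25, were not called either and lay between -0.71 (Tlr3) and 0.25 (Trim25). None of the 5 transcription factors was called in TKO against wt. Irf9, which binds DNA in a complex with Stat2, passed the adjusted p (0.014) but not the 2-fold line, with a log2 fold change of -0.96. Stat2, Irf3 and Irf7 were at -0.34, -0.36 and -0.21, and Irf1 was at 0.67.

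The membrane and GTPase effectors went both ways. Samd9l, a restriction factor of poxviruses, read 3.95 and 3.47 in TKO EBs, 5.38 and 4.51 in Dnmt1-/- EBs, against 5.29 and 5.63 in wt EBs, a TKO against wt log2 fold change of -1.75 (SE 0.27, adjusted p = 0.00083, limma). Ifitm1, also known as a surface marker of early germ cells in mouse, read 11.21 and 11.20 in TKO EBs, 10.19 and 9.76 in Dnmt1-/- EBs, against 10.06 and 9.94 in wt EBs. Here the TKO arrays lay above all others, and the log2 fold change was 1.21 (SE 0.21, adjusted p = 0.0017). A second probe set of Ifitm1 gave 1.58 with an adjusted p of 0.00063. The other 7 measured members of this role, Mx1, Mx2, Rsad2, Bst2, Ifitm2, Ifitm3 and Gbp3, were not called, with values between -0.84 (Rsad2) and 0.19 (Bst2).

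Rtp4, an interferon-induced chaperone of receptors, read 6.20 and 5.61 in TKO EBs, 8.32 and 7.28 in Dnmt1-/- EBs, against 7.29 and 8.15 in wt EBs, a TKO against wt log2 fold change of -1.82 (SE 0.42, adjusted p = 0.011, limma). Ifi35, Parp9 and Parp14, the rest of that group, lay between -0.72 and -0.43 and were not called. Cxcl10 read 6.72 and 6.41 in TKO EBs, 7.73 and 7.23 in Dnmt1-/- EBs, against 7.52 and 7.72 in wt EBs, a log2 fold change of -1.06 (SE 0.25, adjusted p = 0.013). B2m, the light chain shared by all class I major histocompatibility molecules, read 9.71 and 8.98 in TKO EBs, 10.73 and 10.71 in Dnmt1-/- EBs, against 10.64 and 11.40 in wt EBs. For these 3 genes TKO arrays stood below all others, and B2m differed from wt by -1.68 (SE 0.28, adjusted p = 0.0017). The immunoproteasome subunits Psmb8 and Psmb9 were at 0.56 and 0.21 and the peptide transporter Tap1 was at -0.61 with an adjusted p of 0.047, so none of these 3 antigen presentation genes was called.

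Of the 11 calls between TKO and wt EBs at day 16, 6 stayed when any array was left out: Usp18, Ifit1, Ifit2, Samd9l, B2m and Ifitm1. The other 5 were lost without wt replicate 2 of day 16, with log2 fold changes of -0.96 for Cxcl10, -0.87 for Eif2ak2, -0.84 for Ifih1, -1.0 for Ifit3 and -1.39 for Rtp4. The same 5 were lost without TKO replicate 2 of day 16, at -0.90, -0.69, -1.19, -2.06 and -1.52 in the same order of genes, and Ifit3 also without TKO replicate 1 (-1.65, adjusted p = 0.1). Each of the fits without a replicate 2 left 6 calls. Ifit3 and Samd9l are among the dimmest 30% of all probe sets by mean over the arrays, and their TKO signal at day 16 was near that of ESCs, so their calls could not be tested once those probe sets were left out.

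**Figure D2:**
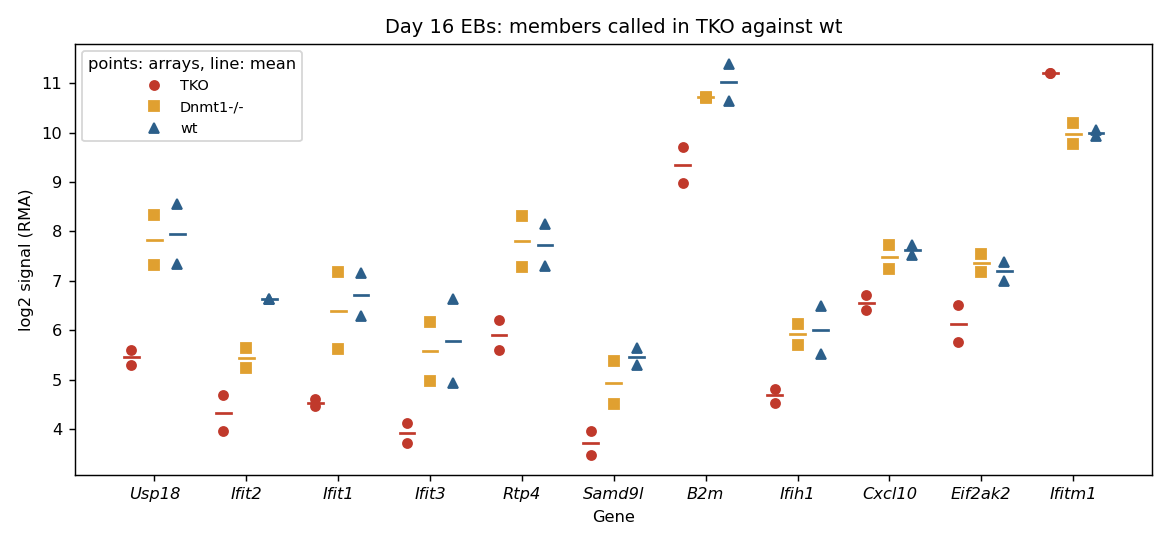
Log2 signal on each array of day 16 EBs for the 11 members called in TKO against wt, in the order TKO (circles), Dnmt1-/- (squares) and wt (triangles) for each gene, with a short line at the mean of 2 arrays. TKO circles are below the other symbols in 10 genes and above them in Ifitm1, while Dnmt1-/- and wt symbols overlap except in Ifit2. Levels should be compared within a gene only.

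Dnmt1-/- EBs stood close to wt EBs at day 16. Only Ifit2 was called lower, 1 of 39 members beside 1.36% of all probe sets, and the median member differed by -0.02 against -0.03 over all probe sets. Before adjustment 1 member was higher and 2 were lower, beside 3018 and 2793 of all 35512 probe sets. The Ifit2 call was lost without Dnmt1-/- replicate 2 of day 16, which gave -1.0 with an adjusted p of 0.066. Irf7, the factor that amplifies interferon production, was the highest, at 7.20 and 6.54 in Dnmt1-/- EBs, against 5.66 and 6.35 in wt EBs, a difference of 0.87 with an adjusted p of 0.06.

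TKO was also set against Dnmt1-/- EBs directly, a comparison that shares the TKO arrays with that against wt. At day 16, 8 members were lower in TKO (0.941% of all probe sets) and Ifitm1 was higher (0.13%). The median member differed by -0.44 against 0.06 over all probe sets. The 8 were Usp18 (-2.37, adjusted p = 0.015), Rtp4 (-1.89, 0.041), Ifit1 (-1.86, 0.047), B2m (-1.37, 0.031), Samd9l (-1.23, 0.039), Eif2ak2 (-1.23, 0.032), Ifit2 (-1.11, 0.024) and Irf7 (-1.08, 0.046), and Ifitm1 was at 1.23 (0.012). None of these 9 calls stayed in every fit with 1 array left out. Without TKO replicate 2 of day 16 the count was 0, and without Dnmt1-/- replicate 1 of day 16 it was 1.

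The courses over differentiation show where the genotypes parted. From day 0 to day 4, B2m rose in all lines and Trim25, the ubiquitin ligase that acts on RIG-I, fell in all. B2m read 7.19 and 7.70 at day 0 and 9.04 and 9.14 at day 4 in TKO cells, 7.45 and 7.12 and then 8.90 and 9.32 in Dnmt1-/- cells, and 8.21 and 7.93 and then 9.07 and 9.12 in wt cells. The later arrays lay above the earlier ones in each line, by 1.65 in TKO (adjusted p = 0.0045), 1.83 in Dnmt1-/- (0.0014) and 1.02 in wt (0.04, limma). Trim25 changed by -1.08 in TKO (adjusted p = 0.024), -1.23 in Dnmt1-/- (0.0083) and -1.31 in wt (0.0059). Ddx58 and Ifitm3 fell in Dnmt1-/- and wt cells. In TKO cells Ddx58 read 8.28 and 7.78 at day 0 and 7.20 and 7.63 at day 4, a change of -0.62 with an adjusted p of 0.24. It read 8.42 and 8.12 and then 6.85 and 6.19 in Dnmt1-/- cells, and 8.04 and 7.94 and then 6.14 and 6.03 in wt cells, changes of -1.75 (adjusted p = 0.0011) and -1.90 (0.00067). The TKO days of Ddx58 did not overlap either, but lay closer together. In TKO cells Ifitm3 read 10.82 and 10.95 and then 10.36 and 10.91, days that overlapped, a change of -0.25 with an adjusted p of 0.69. It read 11.16 and 10.88 and then 10.06 and 9.67 in Dnmt1-/- cells and 10.68 and 10.42 and then 9.15 and 8.39 in wt cells, changes of -1.16 (0.014) and -1.78 (0.0011).

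Further calls of this step were Gbp3 in TKO cells, which read 4.89 and 5.10 at day 0 and 7.42 and 7.13 at day 4, a change of 2.28 (SE 0.59, adjusted p = 0.04), and Usp18 in Dnmt1-/- cells, which read 4.83 and 5.12 and then 7.24 and 6.09, a change of 1.69 (SE 0.42, adjusted p = 0.023). In all, 2 members were higher and 1 lower in TKO cells (2.27% and 0.898% of all probe sets), 2 higher and 3 lower in Dnmt1-/- cells (2.56% and 2.05%), and 1 higher and 3 lower in wt cells (2.43% and 2.08%). Several of these calls were lost when an array was left out. Gbp3 was lost without any of the 4 TKO arrays of these days, at 2.13 to 2.43, and without either Dnmt1-/- array of day 0. Usp18 was lost without either Dnmt1-/- array of day 0 (1.55 and 1.84) or replicate 1 of day 4 (1.12). B2m was lost in wt without any of the 4 wt arrays of these days (0.88 to 1.16) or any of 4 arrays of the other lines (1.02 in each), and in TKO without replicate 1 of day 0 (1.39). Trim25 was lost in TKO without either array of day 0 (-1.02 and -1.15) or replicate 1 of day 4 (-0.84), in Dnmt1-/- without replicate 1 of day 0 (-1.15) or replicate 2 of day 4 (-0.96), and in wt without replicate 2 of day 4 (-1.03). Ifitm3 was lost in Dnmt1-/- without replicate 1 of day 0 (-1.02) or replicate 2 of day 4 (-0.96). Whether the change from day 0 to day 4 differed between lines was tested as such. TKO minus wt gave 0 calls (1.38% of all probe sets), and Dnmt1-/- minus wt gave 0 (0% of all probe sets). At an unadjusted p under 0.05, TKO minus wt had 8 members higher and 0 lower, beside 2165 and 1502 of 35512 probe sets. Dnmt1-/- minus wt had 2 higher and 0 lower, beside 724 and 733 probe sets. The count of calls for TKO minus wt depended on the setting. The differences were 2.21 for Irf1 (adjusted p = 0.07), 1.53 for Ifitm3 (0.071) and 3.37 for Gbp3 (0.076). All 3 were called with a replicate block and with the FDR taken over all comparisons, and 2 of them in each of 3 other settings. Without either Dnmt1-/- array of day 4, Irf1, Gbp3 and Parp9 were called, and without wt replicate 1 of day 4, Ifitm3.

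**Figure D3:**
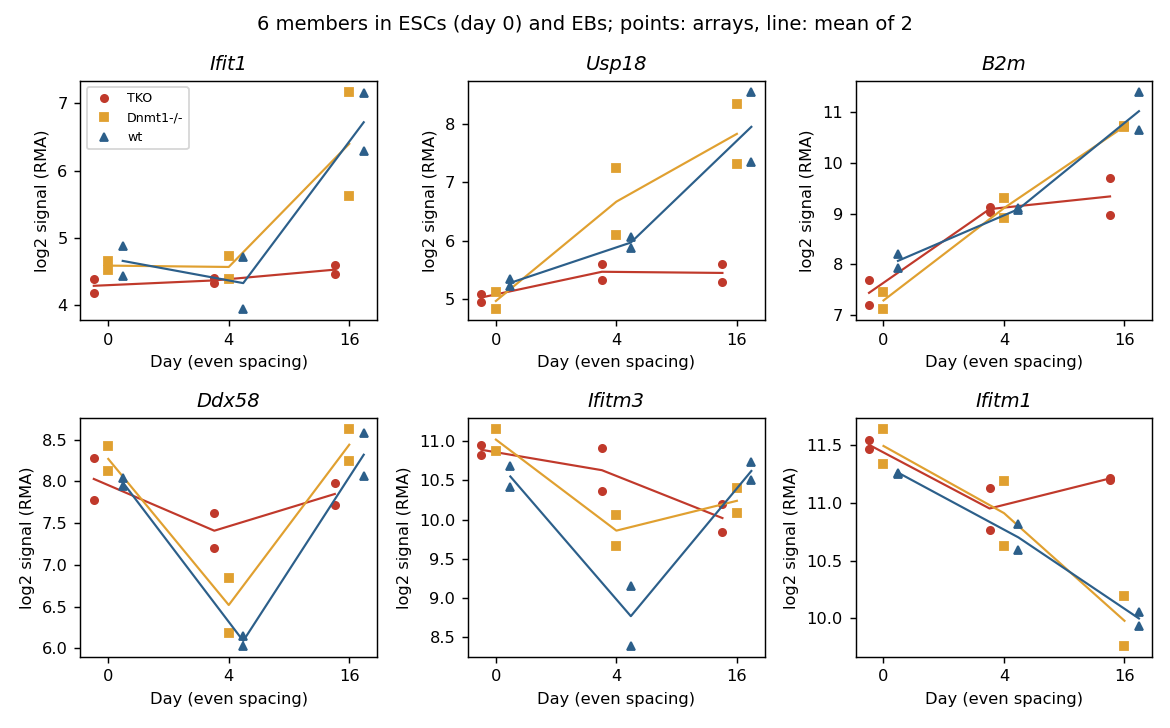
Log2 signal of Ifit1, Usp18, B2m, Ddx58, Ifitm3 and Ifitm1 at day 0, day 4 and day 16 (evenly spaced, not to scale in time) in TKO (circles), Dnmt1-/- (squares) and wt cells (triangles). Points are arrays and lines join the means of 2 arrays. The top row shows genes whose TKO points are below the others at day 16, and the lower row shows Ddx58 and Ifitm3, which dip in wt at day 4, and Ifitm1, which stays above 11.1 on both TKO arrays of day 16.

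From day 4 to day 16 a part of the 39 members rose in Dnmt1-/- and wt EBs, and none of the 39 was called in TKO EBs. In TKO EBs 0 of 39 members were called (1.41% of all probe sets in either direction), with a median change of 0.21 against 0.01 over all probe sets. At an unadjusted p under 0.05, 6 members were higher and 3 lower, beside 2246 and 3050 of all 35512 probe sets. In Dnmt1-/- EBs 13 were called higher and 0 lower (2.39% of all probe sets called higher), with a median of 0.81 against -0.07. In wt EBs 16 were higher and 0 lower (3.94% of all probe sets called higher), with a median of 0.83 against -0.08. Of the 16 members called in wt EBs, 10 were also called in Dnmt1-/- EBs (62.5% of the wt calls and 76.9% of the Dnmt1-/- calls): B2m, Cxcl10, Ddx58, Ifi35, Ifit1, Ifit3, Irf9, Rsad2, Rtp4 and Samd9l. The overlap of calls over all probe sets was not computed, so these percentages are not shown to be particular to the members. Eif2ak2, Irf7 and Trim25 were called in Dnmt1-/- but not in wt EBs, and Ifih1, Ifit2, Ifitm3, Oasl2, Parp14 and Usp18 in wt but not in Dnmt1-/- EBs. For the 16 wt genes the median change was 0.29 in TKO, 1.23 in Dnmt1-/- and 1.88 in wt EBs, where the last value is fixed by how the genes were chosen. Choosing genes by their wt change also favours smaller values in the other lines, so these medians do not measure a difference between lines. Both day 16 arrays lay above both day 4 arrays for 9 of the 16 genes in TKO, 15 in Dnmt1-/- and 16 in wt EBs. The wt count also follows from how the genes were chosen. The share of all probe sets without such overlap was not computed, so these counts have nothing to be set against.

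Rtp4 had the largest change among the wt calls. It read 5.63 and 4.97 at day 4 and 6.20 and 5.61 at day 16 in TKO EBs, 6.12 and 5.03 and then 8.32 and 7.28 in Dnmt1-/- EBs, and 4.83 and 4.89 and then 7.29 and 8.15 in wt EBs. The days overlapped in the TKO line alone, with changes of 0.60 in TKO, 2.22 in Dnmt1-/- (adjusted p = 0.0077) and 2.86 in wt EBs (SE 0.42, adjusted p = 0.0006, limma). Ifit1 read 4.41 and 4.33 and then 4.60 and 4.47 in TKO EBs, a change of 0.17 (adjusted p = 0.91). It rose by 1.83 in Dnmt1-/- EBs (0.025) and by 2.39 in wt EBs (SE 0.42, 0.0022), where it read 3.94 and 4.72 and then 6.29 and 7.16. Cxcl10 was at 0.73 in TKO EBs (adjusted p = 0.17) and rose by 1.00 in Dnmt1-/- (0.037) and 2.37 in wt EBs (5.6e-05). Ddx58 was at 0.44 in TKO EBs (0.5), and rose by 1.92 in Dnmt1-/- (0.00093) and 2.24 in wt EBs (0.00014), back to about its level in ESCs. Rsad2 encodes viperin, an enzyme that makes a chain-terminating nucleotide. It read 5.39 and 5.52 and then 6.28 and 6.28 in TKO EBs, 5.40 and 5.07 and then 6.96 and 6.63 in Dnmt1-/- EBs, and 5.14 and 5.17 and then 6.24 and 8.0 in wt EBs. Its later arrays were higher in each line, with changes of 0.82 in TKO (adjusted p = 0.35), 1.56 in Dnmt1-/- (0.036) and 1.96 in wt EBs (0.0043). Ifitm1 was at 0.26 in TKO EBs (adjusted p = 0.64), and at -0.93 in Dnmt1-/- (0.02) and -0.71 in wt EBs (0.039), under the 2-fold line.

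Of the 16 wt calls, 9 stayed when any array was left out: B2m, Cxcl10, Ddx58, Ifit1, Ifit2, Ifitm3, Rsad2, Rtp4 and Samd9l. The other 7 were lost without wt replicate 2 of day 16, with changes of 0.87 for Ifi35, 0.98 for Ifih1, 1.06 for Ifit3, 0.83 for Irf9, 0.76 for Oasl2, 0.98 for Parp14 and 1.38 for Usp18. Apart from Irf9, each was also lost without 1 or both wt arrays of day 4, at 0.95 for Ifi35, 1.36 for Ifih1, 1.59 for Ifit3, 1.62 and 1.31 for Oasl2, 1.55 and 1.39 for Parp14 and 1.88 for Usp18. Of the 13 calls in Dnmt1-/- EBs, those of Ddx58 and Irf7 stayed in all such fits. Without Dnmt1-/- replicate 1 of day 16 there were 3 calls, and without replicate 2 of day 4 there were 5.

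**Figure D4:**
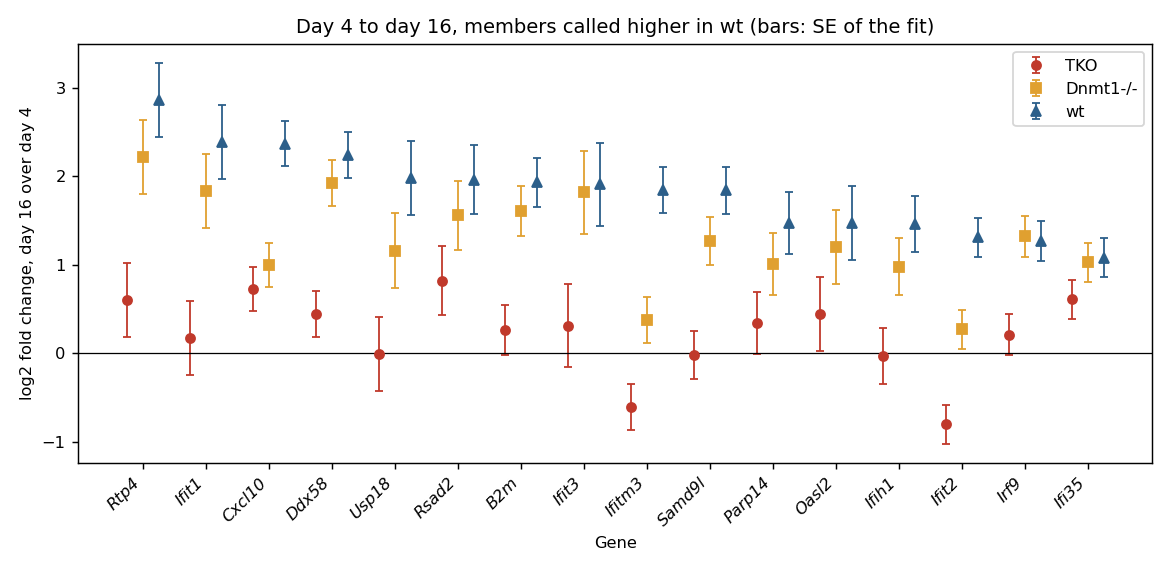
Log2 fold change from day 4 to day 16, day 16 over day 4, of the 16 members called higher in wt EBs, shown for TKO (circles), Dnmt1-/- (squares) and wt (triangles), with bars for the SE of the limma fit. Wt triangles are all above 1 because of how the genes were chosen, which also favours lower values in the other lines. Dnmt1-/- squares run from 0.27 to 2.22, and TKO circles run from -0.80 to 0.82.

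The difference of this change between lines was tested as such. TKO minus wt gave 6 members called lower (2.24% of all probe sets) and 0 higher, with a median of -0.92 against 0.09 over all probe sets. At an unadjusted p under 0.05, 16 members were lower and 1 higher, beside 2647 and 2491 of all 35512 probe sets. The 6 were Ifitm3 (-2.46, adjusted p = 0.0028), Ifit2 (-2.11, 0.002), Samd9l (-1.86, 0.018), Ddx58 (-1.80, 0.02), B2m (-1.67, 0.041) and Cxcl10 (-1.63, 0.024). Ifitm3 and Ddx58 enter this list from a higher TKO level at day 4, while Ifit2, Samd9l, B2m and Cxcl10 were lower in TKO at day 16. Ifitm3 and Ifit2 stayed when any array was left out. Without wt replicate 2 of day 16, Samd9l gave -1.69, Ddx58 -1.54, B2m -1.29 and Cxcl10 -1.53, and none of these 4 was called. Samd9l was also lost without wt replicate 1 of day 4 (-1.74) or replicate 1 of TKO day 4 (-1.70), and the other 3 without either wt array of day 4 or replicate 2 of TKO day 4, at -1.86 to -1.43. All 4 were lost without TKO replicate 2 of day 16 (-1.67 to -1.31), and B2m also in 7 further fits. Dnmt1-/- minus wt gave 0 calls (0.884% of all probe sets). At an unadjusted p under 0.05, 1 member was higher and 4 were lower, beside 1523 and 1441 of all 35512 probe sets.

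A further 105 genes of the interferon pathway, of 127 listed, had a probe set with 1 symbol. In TKO against wt EBs at day 16, 14 of them were lower and 3 higher, beside 3.43% and 2.4% of all probe sets, and without wt replicate 2 of day 16 the count was 11 instead of 17. At day 4, 6 were higher and 1 lower, beside 2.11% and 0.805% of all probe sets, 7 in all, and 4 were called without TKO replicate 2 or wt replicate 2 of day 4. The 15 interferon ligand genes with a probe set of 1 symbol had 0 calls in any comparison, and at most 1 of them passed an unadjusted p under 0.05 in either direction in each. Ifnb1, Ifna4, Ifna11, Ifna12, Ifna13, Ifne and Ifnk are among the dimmest 30% of all probe sets, where a change could go unseen. Among 11 receptor and JAK-STAT genes, 4 were lower in TKO EBs at day 16, including Ifngr2 (-1.67, adjusted p = 0.0014), a chain of the interferon gamma receptor, and Il10rb (-1.72, 0.0025), a chain shared by the receptors for interleukin 10 and interferon lambda. Of the effectors, Lgals3bp, a secreted glycoprotein that binds galectin, was at -2.78 in TKO EBs at day 16 (adjusted p = 2.7e-05) and Slfn2, of the Schlafen family, at -1.99 (1.8e-05), with -1.70 in Dnmt1-/- EBs (0.00016). Iigp1, an immunity-related GTPase, was at -1.72 (0.0025), Tlr7, the endosomal sensor of single-stranded RNA, at -1.53 (9e-05), and Trim30a at -1.58 (0.027), the last not called without wt replicate 2 of day 16 (-1.10) or either TKO array of that day (-1.48 and -1.68).

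A small set of the pathway genes was higher in the mutants. Aim2, the sensor of cytosolic DNA, was higher at day 4 by 2.55 in TKO (adjusted p = 2e-05) and 1.75 in Dnmt1-/- EBs (0.00076). It read 7.76 and 7.67 in TKO EBs, 6.98 and 6.84 in Dnmt1-/- EBs, against 5.25 and 5.08 in wt EBs, with no overlap between the genotypes. In day 0 ESCs Aim2 lay between 7.35 and 7.91 in all lines. Pnpt1, a mitochondrial RNA-degrading enzyme that limits double-stranded RNA, was higher at day 16 by 1.13 in TKO (0.00024) and 1.65 in Dnmt1-/- EBs (2e-05), and Phf11d by 2.06 (0.00049) and 1.66 (0.0048). The Phf11d call in Dnmt1-/- EBs was lost without Dnmt1-/- replicate 1 of day 16 (1.46, adjusted p = 0.06). Zc3hav1, which binds viral RNA rich in CpG, was lower in TKO EBs at day 4 by a log2 fold change of -1.69 (0.0038), and Rnf125, a ubiquitin ligase that marks RIG-I for decay, was higher at 1.49 (0.0025). Over the step from day 4 to day 16, 3 of the 105 pathway genes were called in TKO, 9 in Dnmt1-/- and 21 in wt EBs. Over all 35512 probe sets, 282 were higher and 219 lower in TKO, 848 and 111 in Dnmt1-/-, and 1398 and 685 in wt EBs. For the change from day 0 to day 4, TKO minus wt, 4 pathway genes were called, beside 1.38% of all probe sets. Irgm1 was among them, but its call was lost in several fits with 1 array left out, at 3.11 to 3.61.

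Markers of several cell types moved with the genotypes at day 16. Over all probe sets, 3.43% were called lower and 2.4% higher in TKO against wt EBs. In Dnmt1-/- against wt EBs 1.36% were called lower, and 544 of 35512 probe sets higher. The 16 macrophage and myeloid markers had a mean log2 signal of 5.07 and 5.22 on TKO arrays, 5.53 and 5.45 on Dnmt1-/- arrays, against 6.94 and 7.17 on wt arrays, and 11 of them were called lower in TKO and 11 in Dnmt1-/- EBs. Lyz2, the lysozyme of macrophages, read 3.66 and 3.94 in TKO EBs, 6.08 and 5.31 in Dnmt1-/- EBs, against 9.22 and 8.68 in wt EBs, and between 3.25 and 3.79 in day 0 ESCs of all lines. The 10 fibroblast and stromal markers averaged 7.02 and 6.51 in TKO EBs, 9.22 and 8.82 in Dnmt1-/- EBs, against 10.36 and 10.60 in wt EBs, with 8 lower in TKO and 6 in Dnmt1-/- EBs. ESC markers averaged 10.09 and 10.07 in TKO EBs, 9.05 and 8.83 in Dnmt1-/- EBs, against 7.57 and 7.18 in wt EBs, with 9 and 5 of 10 called higher. The 8 visceral endoderm and liver markers averaged 9.39 and 8.72 in TKO EBs, 11.07 and 10.84 in Dnmt1-/- EBs, against 10.73 and 10.29 in wt EBs, with 3 called lower in TKO against wt, and 2 higher and 1 lower in Dnmt1-/- against wt EBs. The 8 endothelial markers averaged 7.06 and 6.85 in TKO EBs, 7.27 and 7.12 in Dnmt1-/- EBs, against 7.54 and 6.88 in wt EBs. The 5 trophoblast markers averaged 6.40 and 6.26, 6.66 and 6.46, and 6.49 and 6.99 in the same order. Over the same arrays the 39 interferon genes averaged 6.59 and 6.43 in TKO EBs, 7.33 and 6.83 in Dnmt1-/- EBs, against 6.83 and 7.43 in wt EBs. For these genes TKO arrays lay below those of both other lines, as for every marker list but the ESC and endothelial ones. Dnmt1-/- and wt arrays overlapped for the interferon genes. At day 4, where Ddx58 and Ifitm3 were higher in TKO EBs, 8 of the 10 ESC markers were also called higher, beside 2.11% of all probe sets. Their means were 9.50 and 9.96 in TKO EBs, 8.72 and 7.46 in Dnmt1-/- EBs, against 7.24 and 7.32 in wt EBs. The part of these cell types in the members' values was not tested.

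**Figure D5:**
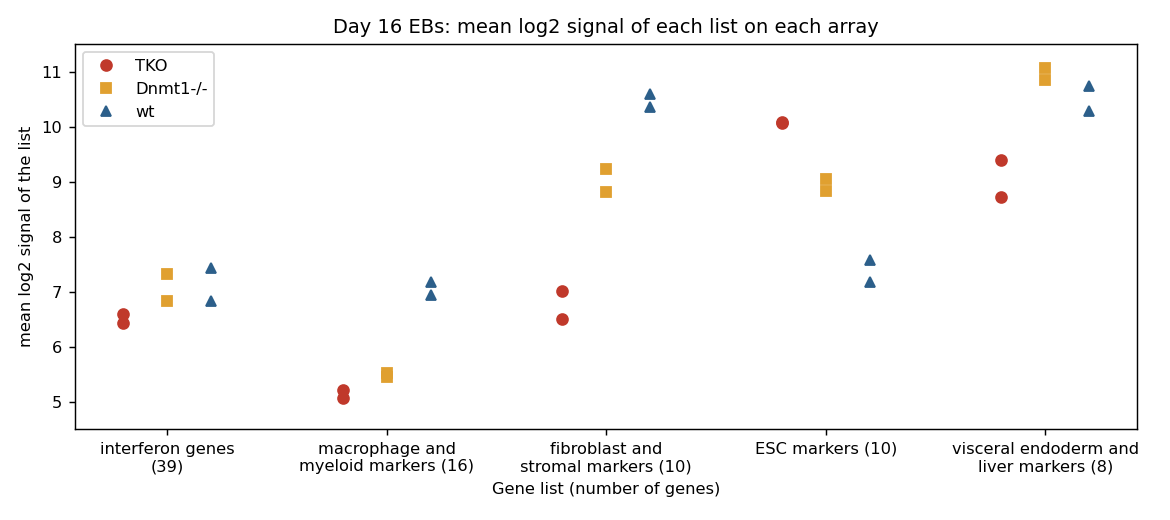
Mean log2 signal of the 39 interferon genes and of 4 marker lists on each array of day 16 EBs, TKO (circles), Dnmt1-/- (squares) and wt (triangles), to be compared within a list only. The Dnmt1-/- squares lie with wt for the interferon genes, near TKO for the macrophage and myeloid markers, and between both for the fibroblast and ESC markers. TKO circles lie below both other lines in every list shown but the ESC markers, where they lie above them.

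The members that were called in no comparison were Dhx58, Mavs, Tlr3, Zbp1, Irf1, Irf3, Stat2, Oas2, Oas3, Oasl1, Mx1, Mx2, Bst2, Ifitm2, Parp9, Psmb8, Psmb9 and Tap1. They include the adaptor Mavs, between 7.13 and 7.96 on all 18 arrays, and the Mx GTPases, dynamin-like proteins that trap viral particles. Mx1 stayed between 2.91 and 3.95. Mx1, Mx2 and Tlr3 are among the dimmest 30% of all probe sets, where a change could go unseen. Irf1 has a second probe set, between 4.89 and 5.65 on all arrays, which did not follow the TKO value of the first at day 4 (-0.29 against 1.28), so its values are uncertain.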

How the data were processed

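RNA of the 18 samples had been hybridised to Affymetrix mouse gene arrays. The values deposited by the authors are log2 signals per probe set, summarised by RMA per the labels. No source used here states its version, its annotation or a filter. The values were used as deposited. Gene names came from the platform annotation, in which 21789 of 35512 probe sets carry 1 symbol, 1621 several and 12102 none. For a gene with several probe sets, the one with the highest mean was used. One limma fit (3.58.1, R 4.3.3) to all 9 groups, with 9 residual degrees of freedom, gave 19 comparisons. P-values were adjusted by Benjamini-Hochberg over all probe sets within each. Named genes are all calls among the members and a part of the called pathway genes. The members and lists were chosen with earlier results of these data known. The labels call the 2 arrays of a group biological replicates.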

Additional observations from a re-analysis of the deposited data

Results flagged for a closer look

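For 6 members the change from day 4 to day 16 differed between TKO and wt EBs in a test of that difference itself (limma, adjusted over all probe sets). All 6 were called lower, beside 2.24% of all probe sets. The difference, TKO minus wt on the log2 scale, was -2.46 for Ifitm3, -2.11 for Ifit2, -1.86 for Samd9l, -1.80 for Ddx58, -1.67 for B2m and -1.63 for Cxcl10. The calls of Ifitm3 and Ifit2 stayed when any array was left out, and those of the other genes did not. With 2 arrays in each group, single outlying arrays could not be looked for within groups.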

How the results depend on the processing

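Of 71 single calls of members over all comparisons, 24 stayed when any 1 array was left out, 19 of these also under every other alternative, and 0 changed sign. Fitting only the arrays compared kept 28 and lost 43, with few residual degrees of freedom. The other settings lost at most 4 each, and leaving out the lowest 30% of probe sets left 8 untested. Counts of members called were as follows. With only the arrays compared, Dnmt1-/- against wt gave 0 at day 4 and 0 at day 16, TKO against wt 5 at day 16, TKO against Dnmt1-/- 0 at day 16, day 0 to 4 in Dnmt1-/- 2, day 4 to 16 gave 2 in Dnmt1-/- and 8 in wt, and TKO minus wt gave 2 for day 0 to 4 and 3 for day 4 to 16. Subtracting array medians gave 0 for Dnmt1-/- against wt at day 4. With the FDR taken over all comparisons, Dnmt1-/- against wt at day 4 gave 2, day 4 to 16 in TKO 1, TKO minus wt for day 0 to 4 gave 3 and Dnmt1-/- minus wt for day 4 to 16 gave 1. The mean over probe sets gave 1 for day 4 to 16 in TKO, 2 and 11 for TKO minus wt in the earlier and later step, and 1 for Dnmt1-/- minus wt in the later step. Leaving out the lowest 30% gave 1 for day 4 to 16 in TKO and 2 for TKO minus wt in the earlier step, and quantile normalization gave 1 for day 4 to 16 in TKO. The causes were not tested.

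With 1 array left out, calls ranged from 0 to 1 for Dnmt1-/- against wt at day 4 and from 1 to 3 at day 16. TKO against wt ranged from 1 to 4 at day 4 and from 6 to 15 at day 16, and TKO against Dnmt1-/- from 0 to 1 at day 4 and from 0 to 12 at day 16. From day 0 to 4 the ranges were 1 to 4 in TKO, 2 to 6 in Dnmt1-/- and 2 to 4 in wt, and from day 4 to 16 they were 0 to 1 in TKO, 3 to 14 in Dnmt1-/- and 9 to 20 in wt. TKO minus wt ranged from 0 to 3 for day 0 to 4 and from 2 to 15 for day 4 to 16, and Dnmt1-/- minus wt from 0 to 1 for day 4 to 16. A group with 1 array left is assumed to vary like the others.

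Same-numbered arrays deviated together at 0.041 to 0.501 over 36 pairs of groups (median 0.273). This was over 0.1 in 32 of them but not in all, and no label ties a number to an experiment, so pairing was not assumed. A replicate block kept all 71 calls and gave 4 for TKO against wt at day 4, 1 for day 4 to 16 in TKO and 3 for TKO minus wt for day 0 to 4. Limits: 2 arrays a group, 1 line a genotype, and SEs of 0.16 to 0.59 for members between genotypes. Differences well above the SE could still go uncalled, as that of Gbp3 between TKO and wt ESCs did.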
